A study of Rattus norvegicus with 7 samples.

Results

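Steroid hormones act on the brain through nuclear receptors and through the enzymes that make, activate or inactivate the hormones inside the tissue. The 9 genes described here are the glucocorticoid receptor Nr3c1, the mineralocorticoid receptor Nr3c2, the oestrogen receptors Esr1 and Esr2, the progesterone receptor Pgr, the receptor co-chaperone Fkbp5, the kinase gene Sgk1, and the enzymes Hsd11b1 and Cyp19a1. They were chosen by name, with earlier results of these data known. All 9 were found among the 16223 gene symbols of the hippocampus table and the 16183 of the hypothalamus table. They occupied 10 loci of 18087 and 11 loci of 17762. Where a symbol had more than 1 locus, the locus with the highest mean was taken.

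The study asked how DHA (docosahexaenoic acid, a long-chain omega-3 lipid) in the diet bears on the transcriptome of hypothalamus and hippocampus. The 7 libraries analysed here came from male Sprague Dawley rats that were 2 months old when they were put on a DHA diet for 6 weeks, 4 libraries of hippocampus and 3 of hypothalamus. The chow-fed animals of the study are not analysed here. Every value below is from DHA-fed animals and no effect of the diet was estimated. The labels do not say whether the libraries of a tissue came from separate animals, nor whether both tissues came from the same ones, so the spread between replicates may be partly technical. Values are FPKM (fragments mapped to a transcript per kilobase of its length, relative to all fragments of the library), which are corrected for length and so allow levels of different genes to be compared.

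The mineralocorticoid receptor binds corticosterone with high affinity and the glucocorticoid receptor with lower affinity, so that a cell with both reads low and stress levels of the hormone through different receptors. Hippocampus is known for abundant mineralocorticoid receptor, and parts of hypothalamus for oestrogen and progesterone receptors that serve reproductive control. Hsd11b1 encodes the enzyme that regenerates active glucocorticoid within cells, and Cyp19a1 encodes aromatase, which converts androgens to oestrogens. Fkbp5 and Sgk1 are both induced by glucocorticoids in many tissues, and the Fkbp5 protein in turn lowers the hormone affinity of the glucocorticoid receptor.

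The dissections carried the marker genes of their labelled tissues. All 8 listed hypothalamic markers, Avp, Oxt, Pmch, Hcrt, Pomc, Cartpt, Agrp and Nr5a1, were higher in every hypothalamus library, and all 5 hippocampal markers, Neurod6, Slc17a7, Wfs1, Itpka and Prox1, in every hippocampus library. The sums of FPKM ran from 370020 to 391349 in hippocampus and from 443335 to 471484 in hypothalamus. Sequencing depth is not known in fragments. The spacing of values under 0.1 FPKM gave a relative worth of 1 fragment of 1.52 for replicate 2 to replicate 3 of hippocampus and of 0.883 for the same numbers of hypothalamus. Pairs with replicate 1 of either tissue gave none, since at most 2.75% of low loci lay at any ratio. In hippocampus the choroid plexus list was low in replicate 2 alone, at a mean log2(FPKM + 1) of 1.21 against 4.80 to 5.63 in the other libraries.

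Sgk1 was the most abundant of the 9 in both tissues, and Esr2 the least abundant. In hippocampus the Sgk1 mean exceeded those of 94.2% of the symbols and the Esr2 mean those of 26.4%, and in hypothalamus the shares were 93.9% and 29.9%. In hippocampus the means followed the order Sgk1, Nr3c2, Fkbp5, Hsd11b1, Nr3c1, Pgr, Cyp19a1, Esr1 and Esr2. Nr3c2, Fkbp5 and Hsd11b1 could not be ordered there, since their ranges over libraries overlapped. The other neighbours were in the same order in all 4 libraries with no overlap. In hypothalamus the order was Sgk1, Fkbp5, Hsd11b1, Nr3c1, Nr3c2, Pgr, Esr1, Cyp19a1 and Esr2. Here the ranges of Fkbp5 and Hsd11b1, of Hsd11b1 and Nr3c1, and of Esr1 and Cyp19a1 overlapped, although Hsd11b1 exceeded Nr3c1 in each of the 3 libraries. Nr3c2 thus stood above Nr3c1 in hippocampus and below it in hypothalamus.

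**Figure D1:**
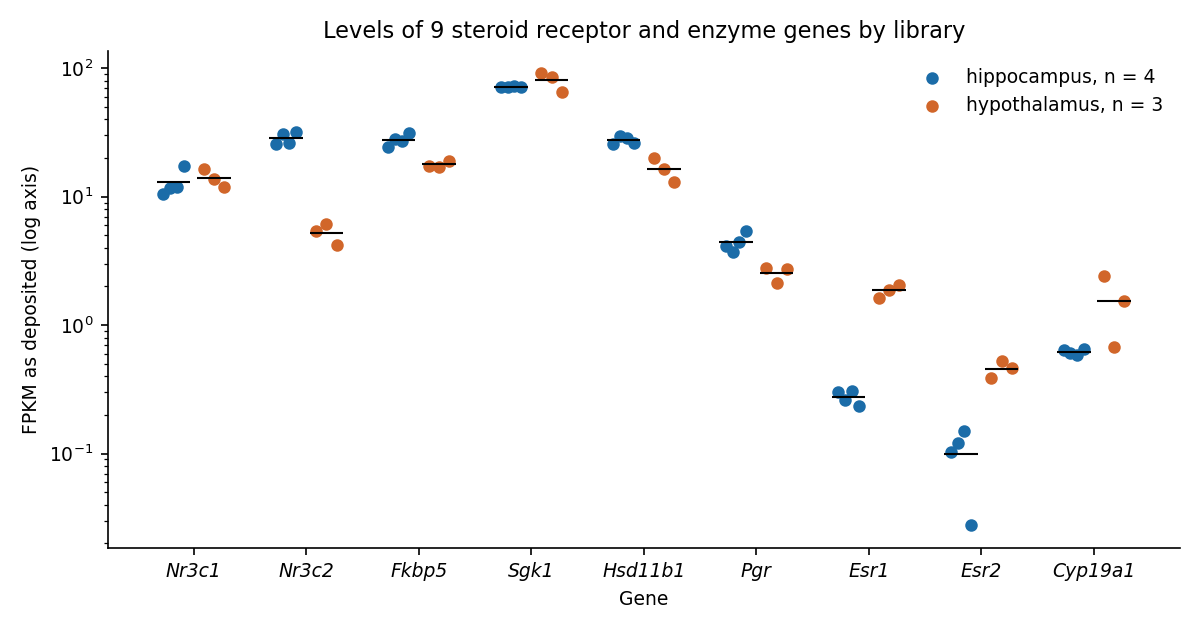
FPKM as deposited of each gene (horizontal axis) in each library (points, log vertical axis), with the tissue mean as a bar, for 4 hippocampus and 3 hypothalamus libraries. The Nr3c2 points of hippocampus lie between 25.6 and 31.7 FPKM and those of hypothalamus between 4.22 and 6.14 FPKM, while the Nr3c1 points of the tissues overlap.

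Each tissue came as its own table, so that tissue and table cannot be told apart, and the differences are described with no test. For that comparison the libraries were brought to a common sum of 1000000 across the 15805 shared symbols, and differences are of mean log2(rescaled FPKM + 1), a scale that understates differences of low genes. Of the 9 genes, 8 reached a mean of 1 FPKM in a tissue. Esr2 did not, and Esr1 and Cyp19a1 did so only through hypothalamus. Every hippocampus library lay above every hypothalamus library for 4 of the 8, Nr3c2, Pgr, Fkbp5 and Hsd11b1, where 28.2% of the 10736 symbols compared did so. For Esr1 the order was the reverse, which held for 24.4% of the symbols, and Nr3c1, Sgk1 and Cyp19a1 overlapped. With a difference of at least 2-fold also required, Nr3c2 and Hsd11b1 were higher in hippocampus, 2 of 8 beside 14.5% of all symbols, and Esr1 was higher in hypothalamus, 1 of 8 beside 13.4%. With FPKM as deposited, 33.8% of the symbols called over the whole tables were higher in hippocampus in place of 52.0%, and the median difference of all symbols was −0.21 in place of 0.05.

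Nr3c2 had the largest of the 9 differences on this log2 scale. The scale understates the differences of Esr1 and Esr2, whose levels are far lower. As deposited, the ratio of the tissue means was larger for Esr1, at 1.86 against 0.276 FPKM, than for Nr3c2. At the Nr3c2 locus used, hippocampus replicates 1 to 4 read 25.6, 30.8, 26.1 and 31.7 FPKM, and hypothalamus replicates 1 to 3 read 5.40, 6.14 and 4.22 FPKM. The 4 hippocampus values were close to each other and far above all 3 hypothalamus values. The means were 28.5 ± 3.12 FPKM (SD, n = 4) and 5.25 ± 0.968 FPKM (SD, n = 3), and the rescaled means differed 6.65-fold, by 2.65 ± 0.18 (SE) on the log2 scale. In bulk tissue, fewer cells that express a gene and less RNA per cell cannot be told apart.

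Nr3c2 had a second, lower locus in each table. In hippocampus it read 5.21, 8.91, 6.41 and 9.79 FPKM, and in hypothalamus 4.30, 5.52 and 4.21 FPKM. These values overlap as deposited, and after rescaling they do not, at 15.1 to 28.1 in hippocampus and 9.48 to 13.2 in hypothalamus. With both loci summed the hippocampus mean was 36.1 FPKM, the hypothalamus mean was 9.93 FPKM, and the difference was 2.08 on the log2 scale with no overlap between tissues.

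Nr3c1 overlapped between the tissues. Hippocampus libraries read 10.5, 11.6, 11.9 and 17.4 FPKM, a mean of 12.9 ± 3.11 (SD, n = 4), and hypothalamus libraries read 16.3, 13.7 and 11.9 FPKM, a mean of 14.0 ± 2.17 (SD, n = 3). Replicate 4 was the high library in hippocampus. The rescaled difference was 0.16 ± 0.21 (SE), and with FPKM as deposited it was −0.12, so its sign depended on the scaling.

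The ratio of 2 genes in a library does not depend on how that library was scaled. The FPKM of Nr3c2 was 2.45, 2.65, 2.19 and 1.82 times that of Nr3c1 in hippocampus replicates 1 to 4, and 0.332, 0.448 and 0.354 times in hypothalamus replicates 1 to 3. The mineralocorticoid receptor transcript was thus the more abundant in all 4 hippocampus libraries and the less abundant in all 3 hypothalamus libraries. The mean ratios were 2.27 ± 0.359 (SD, n = 4) and 0.378 ± 0.0616 (SD, n = 3). With both Nr3c2 loci summed they became 2.86 and 0.718, still on either side of 1.

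**Figure D2:**
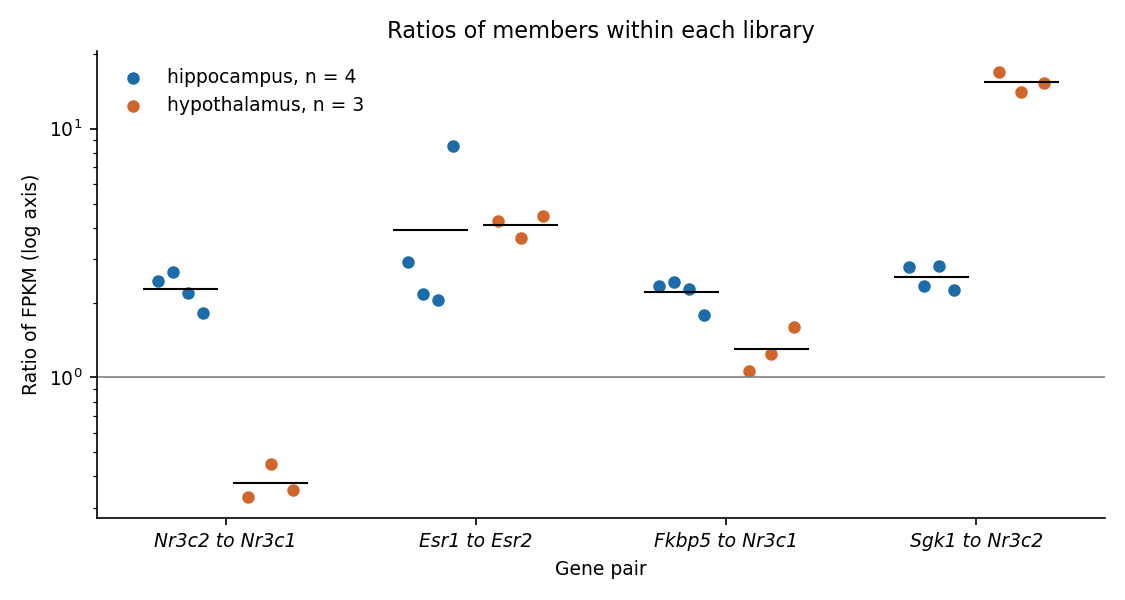
Ratio of the FPKM of 2 genes within each library (points, log vertical axis) for 4 gene pairs (horizontal axis), with tissue means as bars and a line at 1, for 4 hippocampus and 3 hypothalamus libraries. Nr3c2 to Nr3c1 lies above 1 in every hippocampus library and below 1 in every hypothalamus library.

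Fkbp5 was higher in every hippocampus library. It read 24.4, 28.0, 27.1 and 31.0 FPKM in hippocampus, against 17.2, 17.0 and 19.1 FPKM in hypothalamus. All 7 values lay within a narrow band for their tissue, at 27.6 ± 2.73 (SD, n = 4) and 17.8 ± 1.14 FPKM (SD, n = 3). The rescaled means differed 1.91-fold, and the difference of 0.92 ± 0.07 (SE) on the log2 scale fell just short of 2-fold. Relative to Nr3c1 in the same library, Fkbp5 stood at 1.78 to 2.41 in hippocampus and at 1.06 to 1.60 in hypothalamus, which did not overlap.

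Sgk1, which encodes a kinase that acts on ion channels and transporters, was abundant in both tissues and overlapped between them. Hippocampus replicates 1 to 4 read 71.1, 71.8, 73.0 and 71.4 FPKM, and hypothalamus replicates 1 to 3 read 91.1, 85.9 and 64.7 FPKM. The hippocampus values were almost identical, whereas hypothalamus replicate 3 was below its 2 companions and below all hippocampus libraries. The SD of log2(FPKM + 1) over the hippocampus libraries was 0.02, and 0.0598% of the 10033 symbols that averaged 1 FPKM or more had a smaller one. Replicate 2, the library with low choroid plexus genes, read the same Sgk1 level as the others, and the part of choroid plexus in the Sgk1 values was not tested. The rescaled difference between tissues was 0.15 ± 0.18 (SE), and it was −0.15 with FPKM as deposited. Sgk1 stood at 2.25 to 2.80 times Nr3c2 in hippocampus and at 14.0 to 16.9 times in hypothalamus. With both Nr3c2 loci summed the mean ratios went from 2.54 to 2.02 in hippocampus and from 15.4 to 8.15 in hypothalamus.

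Hsd11b1 read 25.7, 29.5, 28.4 and 26.3 FPKM in hippocampus, against 20.0, 16.5 and 12.9 FPKM in hypothalamus. Every hippocampus library was the higher, and hypothalamus replicate 3 was the lowest of the 7. The means were 27.5 ± 1.78 (SD, n = 4) and 16.5 ± 3.53 FPKM (SD, n = 3), 2.04-fold apart after rescaling. The difference of 1.04 ± 0.20 (SE) was just over 2-fold. Without hypothalamus replicate 3 it was 0.85, and it was 0.72 to 0.96 under the 3 other scalings, in each case with no overlap between tissues but under 2-fold. Hsd11b2, whose product inactivates glucocorticoid and so leaves the mineralocorticoid receptor open to aldosterone, was near 0 in both tissues, at 0.0734, 0.0447, 0.266 and 0.0387 FPKM in hippocampus and 0.429, 0.708 and 0.850 FPKM in hypothalamus.

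Pgr was low in both tissues. It read 4.12, 3.68, 4.45 and 5.42 FPKM in hippocampus, against 2.79, 2.11 and 2.75 FPKM in hypothalamus. Each hippocampus library lay above each hypothalamus library, at means of 4.42 ± 0.738 (SD, n = 4) and 2.55 ± 0.386 FPKM (SD, n = 3). The difference of 0.97 ± 0.15 (SE) was just under 2-fold on the log2 scale with a pseudocount of 1. It reached 2-fold in 3 of the 7 cases in which 1 library was left out, at 1.06 without hippocampus replicate 2, at 1.05 without hypothalamus replicate 1, and just at 2-fold without hypothalamus replicate 3.

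The oestrogen receptors were at the bottom of the range and higher in hypothalamus. Esr1 read 0.301, 0.261, 0.306 and 0.236 FPKM in hippocampus, against 1.64, 1.89 and 2.05 FPKM in hypothalamus. The lowest hypothalamus library was well above the highest hippocampus library, the rescaled means differed 5.46-fold, and the difference was −1.57 ± 0.07 (SE). Esr2 read 0.103, 0.121, 0.149 and 0.0277 FPKM in hippocampus, against 0.386, 0.522 and 0.462 FPKM in hypothalamus. It was also lower in every hippocampus library, at −0.69 ± 0.11 (SE), but under 1 FPKM throughout. Because these values are close to 0, the size of the difference depends on the pseudocount, from −2.32 at 0.1 to −0.69 at 5 for Esr1 and from −1.69 to −0.20 for Esr2. In each hypothalamus library Esr1 was the more abundant oestrogen receptor, by 3.62 to 4.44 times, and in hippocampus it was so by 2.05 to 8.53 times.

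Cyp19a1 did not separate the tissues. Its hippocampus values were 0.643, 0.603, 0.581 and 0.656 FPKM, and its hypothalamus values were 2.40, 0.680 and 1.53 FPKM. The hippocampus libraries were close together, and the hypothalamus libraries were spread out, at 1.54 ± 0.861 FPKM (SD, n = 3), with replicate 2 near the hippocampus level. The difference was −0.62 ± 0.39 (SE). Without hypothalamus replicate 2 it was −0.97 and the tissues no longer overlapped, and without hypothalamus replicate 1 it was −0.29 with overlap, or −0.31 lacking the first replicate of both tissues. They did not overlap with FPKM as deposited either, at −0.59. A second hypothalamic locus of Cyp19a1 read 0.101, 0.0532 and 1.11 FPKM.

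**Figure D3:**
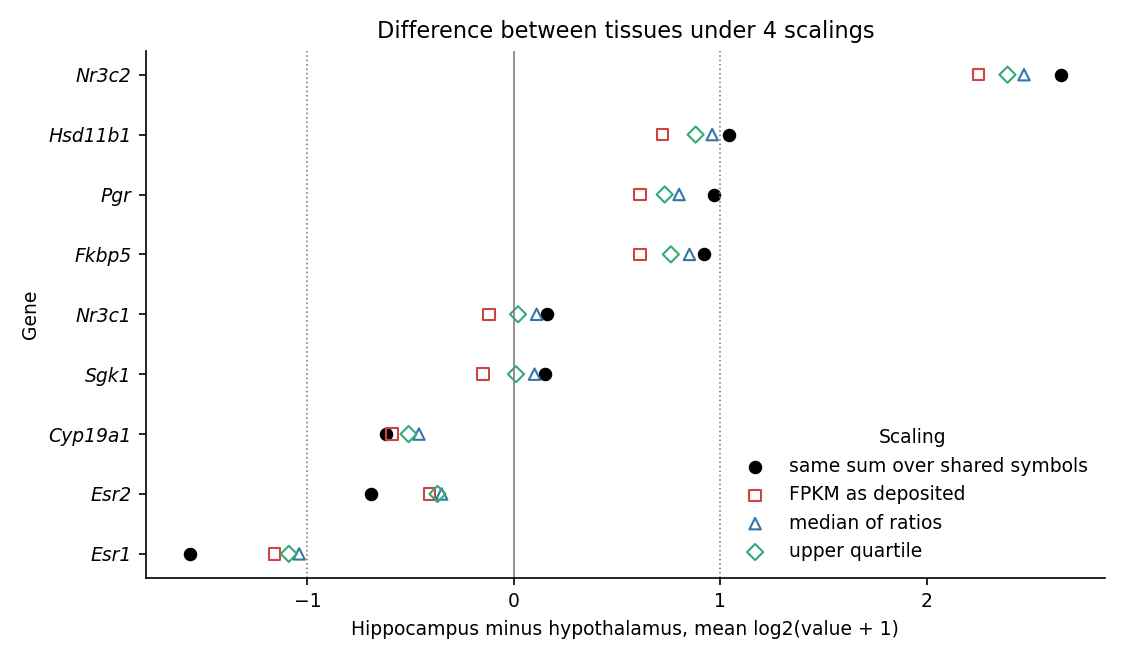
Difference between tissues of each gene (vertical axis), as hippocampus minus hypothalamus of mean log2(value + 1) (horizontal axis), under 4 scalings of the libraries (symbols), with dotted lines at a 2-fold difference. Nr3c2 lies beyond 2-fold towards hippocampus and Esr1 towards hypothalamus under each scaling, Hsd11b1, Pgr and Fkbp5 lie between 0.61 and 1.04 on the hippocampus side, and Nr3c1 and Sgk1 lie around 0.

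The spread among replicates differed between genes. On the log2(FPKM + 1) scale the median SD over all symbols of at least 1 FPKM was 0.23 in hippocampus and 0.25 in hypothalamus. In hippocampus the SD was 0.15 for Nr3c2, 0.14 for Fkbp5, 0.09 for Hsd11b1 and 0.19 for Pgr, all below that median, and 0.30 for Nr3c1. In hypothalamus it was 0.09 for Fkbp5 and 0.10 for Esr1, near the median for Nr3c1, Nr3c2 and Sgk1 at 0.21, 0.23 and 0.26, and larger for Hsd11b1 and Cyp19a1 at 0.30 and 0.51. Hypothalamus replicate 3 was the lowest of its tissue for Nr3c1, Nr3c2, Sgk1 and Hsd11b1 and the highest for Fkbp5 and Esr1.

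Markers of other cells were compared with these patterns. In hypothalamus replicates 1 to 3 the meninges list read 3.90, 4.71 and 2.90 and the choroid plexus list 2.10, 2.32 and 1.73 in mean log2(FPKM + 1). The astrocyte list read 7.43, 7.65 and 7.27 and the endothelial list 3.57, 3.77 and 3.44. All 4 list means were lowest in replicate 3, but Kcnj13, Clic6, Gja1, Cldn5, Pecam1 and Cdh5 of these lists were not. The oligodendrocyte list, at 8.76, 9.13 and 8.95, and the microglia list, at 5.10, 5.12 and 5.11, were not lowest there either. The hypothalamus marker list, at 7.92, 7.61 and 8.11, was highest there. The part of any of these cells in the low Sgk1 and Hsd11b1 values of replicate 3 was not tested. The oligodendrocyte list lay between 8.50 and 8.64 in hippocampus and between 8.76 and 9.13 in hypothalamus, and the astrocyte list between 6.46 and 6.68 in hippocampus. The microglia list lay between 4.17 and 4.71 in hippocampus and between 5.10 and 5.12 in hypothalamus, and in hippocampus the endothelial list lay between 3.55 and 4.09 and the meninges list between 2.18 and 4.28. Otx2 of the choroid plexus list and Col1a2 of the meninges list were listed at 0 in all 7 libraries. Of 5 anterior pituitary genes, Cga, Tshb and Lhb were higher in every hypothalamus library, beside 24.4% of all symbols. Each of them reached a mean of 1 FPKM only through hypothalamus. Cga, the shared subunit of the glycoprotein hormones, read 70.4, 282 and 183 FPKM there, while Prl was listed at 0 in all 7 libraries and Gh1 did not exceed 0.237 FPKM. Pituitary cells also express oestrogen receptor, and the part of such RNA in the hypothalamic Esr1 values was not tested.

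The remaining genes of steroid signalling were taken from 6 lists with 70 entries, of which 59 were found in both tables and 53 reached 1 FPKM in a tissue. At least 2-fold with no overlap, 8 of the 53 were higher in hippocampus beside 14.5% of all symbols, 6 were higher in hypothalamus beside 13.4%, and their median difference was 0.01 beside 0.05 for all symbols. The other steroid receptors overlapped between tissues after rescaling, with 0 of 6 called in either direction and a median difference of −0.15, whereas with FPKM as deposited Pgrmc1, Pgrmc2 and Gper were higher in every hypothalamus library, and with loci summed Esrrg, the gene of an oestrogen-related receptor, was higher in every hippocampus library, at 0.83 against 0.18 at the locus used. Pgrmc2, Gper and Esrrg were named after their values were seen. Pgrmc1, a membrane-associated progesterone receptor component, read 371, 267 and 295 FPKM in hypothalamus. In hippocampus its locus used read 0, 89.3, 88.4 and 223 FPKM, and a second locus read 108, 87.1, 94.0 and 98.0 FPKM, so the value of 0 in replicate 1 belongs to 1 of 2 loci. The Pgrmc1 difference was −3.17 ± 2.14 (SE) at the locus used and −0.49 with loci summed. At the locus used every hypothalamus library was the higher under the 3 other scalings, and after rescaling also without hippocampus replicate 4, at −4.16, or without hypothalamus replicate 2, at −3.25. Lacking the first replicate of both tissues, and with it the value of 0, the difference was −0.91 and the tissues overlapped.

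Among 11 genes of steroid synthesis and metabolism, 1 was higher in hypothalamus, beside 13.4% of all symbols, and 0 in hippocampus, beside 14.5%, with a median difference of −0.38. The hypothalamus count was 3 without hippocampus replicate 3 (with Tspo and Akr1c14), beside 15.2% of all symbols. It was 3 without hypothalamus replicate 1 (with Tspo and Cyp7b1), again beside 15.2%. It was 2 without hippocampus replicate 1 or 4 or hypothalamus replicate 3, beside 14.5%, 13.1% and 14.6%. With FPKM as deposited it was 4, with Cyp7b1, Hsd17b10 and Tspo, beside 16.9% of all symbols. With upper-quartile scaling it was 3, beside 13.5%, and at a minimum of 5 FPKM 0 of 9, beside 12.9%. The gene called with all 7 libraries was not compared at that minimum. Without hypothalamus replicate 2 the hippocampus count was 1, beside 14.3% of all symbols, with Sts at a log2 difference of 1.0. Akr1c14 reached 1 FPKM only through hypothalamus. These names were chosen after their values were seen. The gene called with all 7 libraries was Hsd17b1, which encodes an enzyme that forms oestradiol from oestrone. It read 0.394, 0.270, 0.416 and 0.234 FPKM in hippocampus, against 2.84, 3.53 and 2.75 FPKM in hypothalamus. The difference was −2.06 ± 0.15 (SE), for a gene that reached 1 FPKM only through hypothalamus. The most abundant of the list in hypothalamus, Hsd17b12, read 52.6 ± 5.95 FPKM in hippocampus against 86.8 ± 27.6 FPKM and overlapped after rescaling. In hippocampus Hsd17b4 was the most abundant, at 58.4 ± 12.1 FPKM against 53.4 ± 8.97 FPKM, and overlapped as well.

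Chaperones that hold steroid receptors in a hormone-binding state went both ways, with 2 of 8 higher in each tissue, beside 14.5% of all symbols in hippocampus and 13.4% in hypothalamus, and a median difference of −0.46. Stip1, an adaptor between Hsp70 and Hsp90, had a hypothalamic mean of 313 ± 52.7 FPKM (SD, n = 3) against 84.4 ± 8.08 FPKM (SD, n = 4) in hippocampus, and Bag1 read 46.8 ± 4.60 against 13.4 ± 2.36 FPKM. Hspa4 was higher in hippocampus, at 117 ± 18.4 against 58.9 ± 19.5 FPKM. Hspa8 was called as well, but read at most 5.96 FPKM in any library and reached 1 FPKM only through hippocampus. At a minimum of 5 FPKM the hippocampus count was 1 of 7, beside 15.7% of all symbols. Hspa8 belongs to a family with near-identical copies, so its value is uncertain. The part of such copies in it was not tested. Fkbp4, the co-chaperone that replaces Fkbp5 on the receptor when hormone binds, lay in the direction opposite to Fkbp5. It read 42.8, 47.5, 45.4 and 37.4 FPKM in hippocampus, against 104, 98.7 and 111 FPKM in hypothalamus. Every hypothalamus library was higher, by 0.97 ± 0.08 (SE), just under 2-fold after rescaling and over 2-fold under the 3 other scalings. Fkbp5 was higher in hippocampus under each of the 4 scalings, so the pair was opposed whichever was used.

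Receptor coregulators were higher in hippocampus in 3 of 8 cases, beside 14.5% of all symbols, and in hypothalamus in 0, beside 13.4%, with a median difference of 0.55. Nrip1 read 6.18 ± 1.52 against 2.63 ± 0.678 FPKM, Smarca4 59.3 ± 3.80 against 29.3 ± 4.29 FPKM, and Med1 12.9 ± 3.80 against 6.59 ± 0.550 FPKM, in hippocampus and hypothalamus respectively. With FPKM as deposited all 3 were under 2-fold, Nrip1 at 0.97, Med1 at 0.84 and Smarca4 only just, with no overlap between tissues.

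Of 15 other glucocorticoid-induced genes, 3 were higher in hippocampus and 0 in hypothalamus, beside 14.5% and 13.4% of all symbols, and the median difference was 0.15. Mt2A, a metallothionein gene, read 34.8 ± 3.22 FPKM in hippocampus, against 5.21 ± 1.60 FPKM in hypothalamus. Klf9, a transcription factor gene, read 113 ± 14.7 against 45.9 ± 22.0 FPKM, and with its loci summed its difference went from 1.68 to 0.99. Zbtb16 read 24.0 ± 7.34 against 14.0 ± 6.46 FPKM, and its difference of 1.12 became 0.77 without hypothalamus replicate 1 and 0.93 without hippocampus replicate 4. It overlapped between tissues with FPKM as deposited and with upper-quartile scaling. Tsc22d3, which encodes the glucocorticoid-induced leucine zipper, overlapped between the tissues at 46.8 ± 12.1 and 70.6 ± 9.94 FPKM. Glul, the most abundant of the list, was slightly higher in hippocampus after rescaling, at 0.15, and slightly lower with FPKM as deposited, at −0.15. The remaining 12 of the 15 genes were not called in either direction, and neither were Fkbp5 and Sgk1, which are induced by the same hormones.

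Among 5 genes known to respond to oestrogen in hypothalamus, 3 were higher there, beside 13.4% of all symbols, and the median difference was −2.13. None was called higher in hippocampus with all libraries. Prlr, the prolactin receptor gene, named after its values were seen, lay in that direction at 0.90 ± 0.88 (SE), and was called so at 1.75 without hippocampus replicate 2. It read 0.137 FPKM in that library, the one with low choroid plexus genes, and 3.40 to 6.86 FPKM in the other hippocampus libraries. The part of choroid plexus in the Prlr values was not tested. Gal, the galanin gene, read 128, 79.6 and 134 FPKM in hypothalamus and 1.76 to 2.92 FPKM in hippocampus. Kiss1, the kisspeptin gene, read 3.12, 7.86 and 10.3 FPKM in hypothalamus and was listed at 0 in the 4 hippocampus libraries, so it reached 1 FPKM only through hypothalamus. The gene listed as Tac2, an older name of neurokinin B gene Tac3, read 149 ± 50.8 FPKM against 26.3 ± 2.27 FPKM. Each of them is also a marker of hypothalamic neurons.

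**Figure D4:**
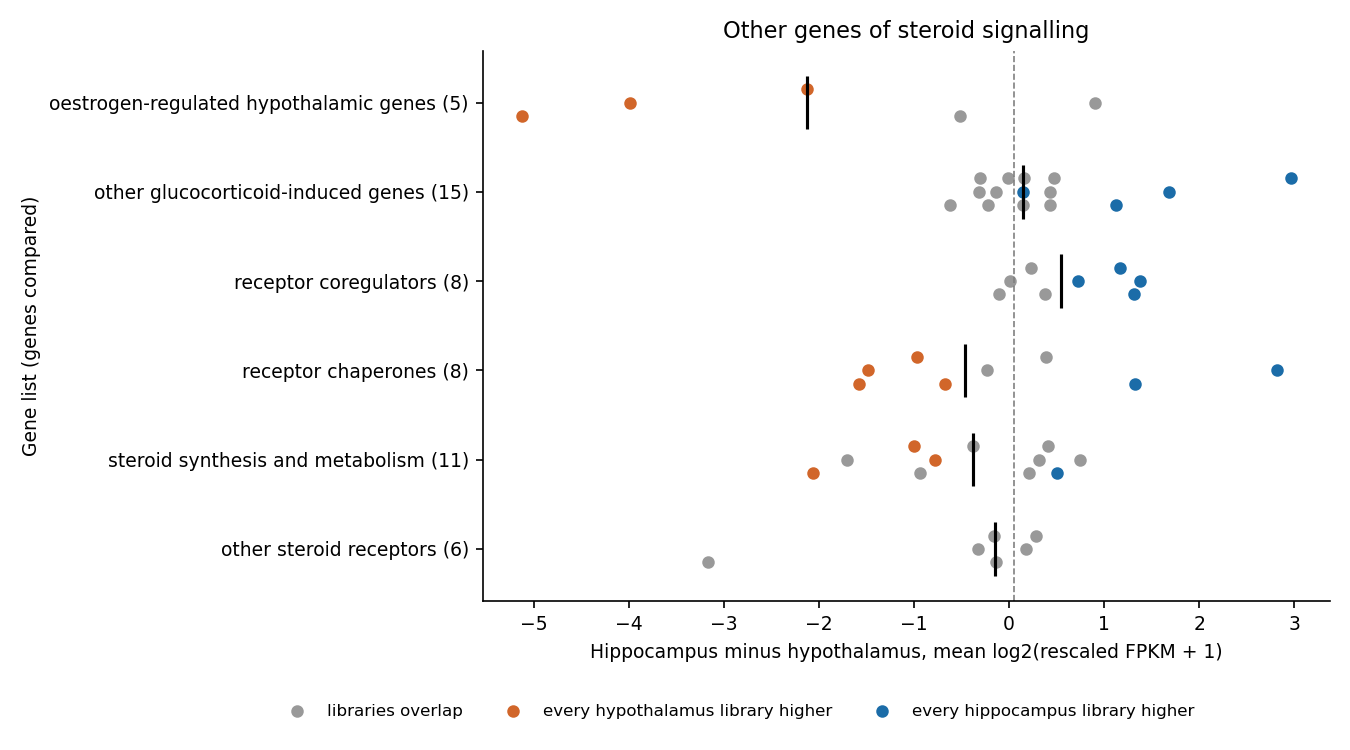
Difference between tissues of each compared gene (points) in 6 lists (vertical axis), as hippocampus minus hypothalamus of mean log2(rescaled FPKM + 1) (horizontal axis), with list medians as black bars and the median of all symbols as a dashed line. Coregulators and glucocorticoid-induced genes that separated the tissues lie on the hippocampus side, except that with FPKM as deposited Glul, Ncoa2 and Nfkbia are higher in every hypothalamus library (the last 2 named after their values were seen), and chaperones lie on both sides.

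Genes with the most similar profile over the 7 libraries were looked up for 4 of the 9 genes, by the root mean square difference of log2(rescaled FPKM + 1) after each profile was centred on its mean, among symbols with 1 locus per table and at least 5 FPKM in a tissue. Libraries share their tissue and table, so likeness mostly reflects the difference between tissues. For Nr3c2 the nearest were Armc6, Dusp4 and Lrrc8b, at 0.131, 0.136 and 0.143, where the median of 6938 candidates was 1.33. For Nr3c1 they were Mtmr10, Rpia and Bbx, at 0.0746 to 0.0792. For Esr1 they were MGC94282, Thap4 and Stip1, at 0.0686 to 0.0782. Thap4 and Stip1, at 51.3 and 313 FPKM in hypothalamus, were far more abundant than Esr1, whose difference the pseudocount compresses more. For Sgk1 they were Pabpc1, Pik3r1 and Etfdh, at 0.0555 to 0.0815.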

How the data were processed

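Poly-A RNA libraries of hippocampus and hypothalamus were sequenced on an Illumina HiSeq 2000, per the labels' protocols. FPKM values were computed and deposited by the authors, 1 table per tissue. TopHat, TopHat2, Bowtie, Bowtie2, Cufflinks and Cuffdiff and the build rn5 are named in the submitters' processing notes, with no role or order. The annotation, the strand setting and how libraries were scaled to each other are not given in the sources used here, so overlapping or antisense transcripts may share fragments.

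Loci whose status word was not OK in every library were dropped (86 in hippocampus, 24 in hypothalamus). Symbols join the tables, and list entries were looked up by symbol or RefSeq synonym (GRCr8). A symbol was compared when its mean was at least 1 FPKM in a tissue, and called when no libraries overlapped and means of log2(rescaled FPKM + 1) differed at least 2-fold. No test was run, because tables may have been normalized separately. The 9 genes and all lists were chosen with earlier results of these data known. Named genes were the 9, up to 3 called genes each way and the most abundant gene of each list, Hsd11b2, Fkbp4 and Tsc22d3 (the values of a further listed gene are not reported here), the markers, and the 3 nearest profiles of 4 genes. Genes outside this rule, named because another setting moved them, were chosen after their values were seen. Alternatives were other scalings, pseudocounts, filters, folds, summed loci and left-out libraries. The functions were tested on simulated data. Python 3.11.15, numpy 2.4.6 and pandas 2.3.3 were used.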

Additional observations from a re-analysis of the deposited data

Results flagged for a closer look

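Among 28 results with 4 hippocampus values, 2 had an outlying library by Dixon's ratio (its distance to the next value as a share of the range), a criterion that chance meets in about 5% of groups. The ratio of Esr1 to Esr2 in hippocampus was 8.53 in replicate 4 and 2.05 to 2.91 in the others, a Dixon ratio of 0.867, with Esr2 at 0.0277 FPKM in that library. The list of other steroid receptors was lowest in hippocampus replicate 1, at a mean log2(FPKM + 1) of 2.29 against 3.13 to 3.28, a Dixon ratio of 0.848. Pgrmc1 was listed at 0 in that library at the locus used, and without Pgrmc1 the list read 2.67, 2.57, 2.58 and 2.52 in replicates 1 to 4.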

How the results depend on the processing

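Nr3c2, Pgr, Fkbp5 and Hsd11b1 stayed higher in every hippocampus library, and Esr1 and Esr2 in every hypothalamus library, under all 15 alternatives run for each difference. Differences ran from 2.08 to 2.78 for Nr3c2, 0.72 to 1.22 for Hsd11b1, 0.61 to 1.08 for Pgr and 0.61 to 0.97 for Fkbp5. The 2-fold count of the 9 genes higher in hippocampus was 2. It was 1 with FPKM as deposited, median-of-ratios scaling, upper-quartile scaling or a pseudocount of 5, beside 8.64%, 12.1%, 10.8% and 11.0% of all symbols. With a pseudocount of 0.1 it was 3, beside 15.4%. At 1.5-fold or with no fold needed it was 4, beside 23.4% and 28.2%. The 2-fold count of the 9 genes higher in hypothalamus, 1, was 0 with a pseudocount of 5 or a minimum of 5 FPKM, beside 9.14% and 12.9%. Of the other pathway genes, 8 in hippocampus became 4 and 6 in hypothalamus became 11 with FPKM as deposited, beside 8.64% and 16.9% of all symbols. The hypothalamus count was 10 of 53 with upper-quartile scaling, at 1.5-fold and with no fold needed, beside 13.5%, 20.6% and 24.4% of all symbols. The causes were not tested. Leaving out 1 library at a time gave 2 to 3 and 1 to 1 for the 9 genes, and 7 to 9 in both directions for the others. The shares of all symbols then ran from 13.8% to 16.9% in hippocampus and from 13.1% to 15.2% in hypothalamus. Lacking the first replicate of both tissues, the counts were 3 and 1, and 7 and 8, beside 18.1% and 15.9% of all symbols. Over all symbols, FPKM as deposited gave 928 calls in hippocampus and 1819 in hypothalamus in place of 1560 and 1439. No paired analysis was possible because the comparison of tissues comes from no test and the labels do not tie equal replicate numbers to 1 animal. Sequencing depth is unknown, so no counting error could be given for the low values of Esr1, Esr2, Cyp19a1 and Hsd11b2.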
